A study of Homo sapiens with 12 samples.

Results

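Aminoacyl-tRNA synthetases are the enzymes that load each amino acid onto its own tRNA, the step that feeds translation. The 38 genes described here were chosen by symbol from the 20003 genes of the mRNA-seq tables, with earlier results of these data known. They are 20 genes of cytosolic synthetases or their subunits, 16 genes of mitochondrial synthetases, and AIMP1 and AIMP2, which encode scaffold proteins of the large synthetase complex. Each of the 38 symbols was present in all 12 samples and passed the filter on low values in every comparison.

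The samples come from a pair of acute myeloid leukemia cell lines. NB4 carries the PML-RARα fusion gene of acute promyelocytic leukemia, and Kasumi-1 carries the AML1-ETO fusion gene. In each cell line, 3 control samples received DMSO and 3 samples were incubated with OGP46 at 1 μM, a compound that the study tested for its effect on the differentiation of such cells. The labels give an incubation of 48 h, while another passage of the study's text gives a longer one. Each line is a single established culture line, and the labels do not say whether the 3 samples of a group were grown as separate cultures. The p-values therefore measure the spread between these samples, which may be technical.

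In the cytosol, EPRS joins glutamate and proline to their tRNAs with a single polypeptide, and FARSA and FARSB are the subunits of phenylalanyl-tRNA synthetase. EPRS, IARS, LARS, MARS, QARS, KARS, RARS and DARS sit together with AIMP1, AIMP2 and EEF1E1 in the multi-synthetase complex, and the others work outside it. Most mitochondrial enzymes have nuclear genes of their own, marked by a 2 at the end of the symbol, while GARS and KARS supply both compartments from a single gene. Many cytosolic synthetase genes are known targets of ATF4, a transcription factor that is made when amino acids run short or when other stresses act on translation. WARS, the tryptophanyl enzyme, is also a classic target of interferon gamma.

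Over the whole series, each sample held 248207 to 310262 FPKM in all, and 9339 to 9746 genes reached 1 FPKM. FPKM are fragment counts divided by transcript length and by library size. They hold no read counts, so depth is unknown, and the 3 samples a group limit the precision. The 5 marker genes listed for Kasumi-1 (RUNX1T1, CD34, KIT, POU4F1 and TRH) summed to between 237 and 299 FPKM in Kasumi-1 samples and to between 0.563 and 3.60 FPKM in NB4 samples (highest in control 3). Of the 5 genes listed for NB4 (HGF, STAB1, PRTN3, ELANE and CTSG), only STAB1 stood higher in NB4, at 9.09 to 15.5 FPKM against 0.208 to 0.626 FPKM, and the 5 genes summed to more in every Kasumi-1 sample than in any NB4 sample. The erythroid and fibroblast markers summed to at most 0.184 FPKM in every sample. CD3D, a T cell gene, was at 13.5 to 20.4 FPKM in NB4 controls and at 22.5 to 34.6 FPKM in NB4 cells with OGP46, while both other T cell markers stayed below a mean of 0.1 FPKM. Its part in the results was not tested.

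All 38 genes were expressed in both cell lines, and the cytosolic enzymes stood well above the mitochondrial enzymes. In NB4 controls, the mean levels of the cytosolic genes ran from 7.58 FPKM (CARS, the cysteinyl enzyme) to 82.5 FPKM (KARS, the lysyl enzyme), with a median of 38.6 FPKM. The mitochondrial genes ran from 1.14 FPKM (FARS2) to 33.1 FPKM (IARS2), with a median of 6.31 FPKM. In Kasumi-1 controls the medians were 38.4 FPKM for the cytosolic and 5.75 FPKM for the mitochondrial genes. The subunits of phenylalanyl-tRNA synthetase were unequal at the mRNA level in both lines. FARSA was at 63.6, 73.9 and 65.1 FPKM in the NB4 controls, and FARSB was at 16.6, 17.8 and 14.5 FPKM in the same samples. Samples of the same group lay close together, with a median standard deviation over the cytosolic genes between 3.70% of the mean (Kasumi-1 with OGP46) and 7.87% of the mean (NB4 with OGP46).

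**Figure D1:**
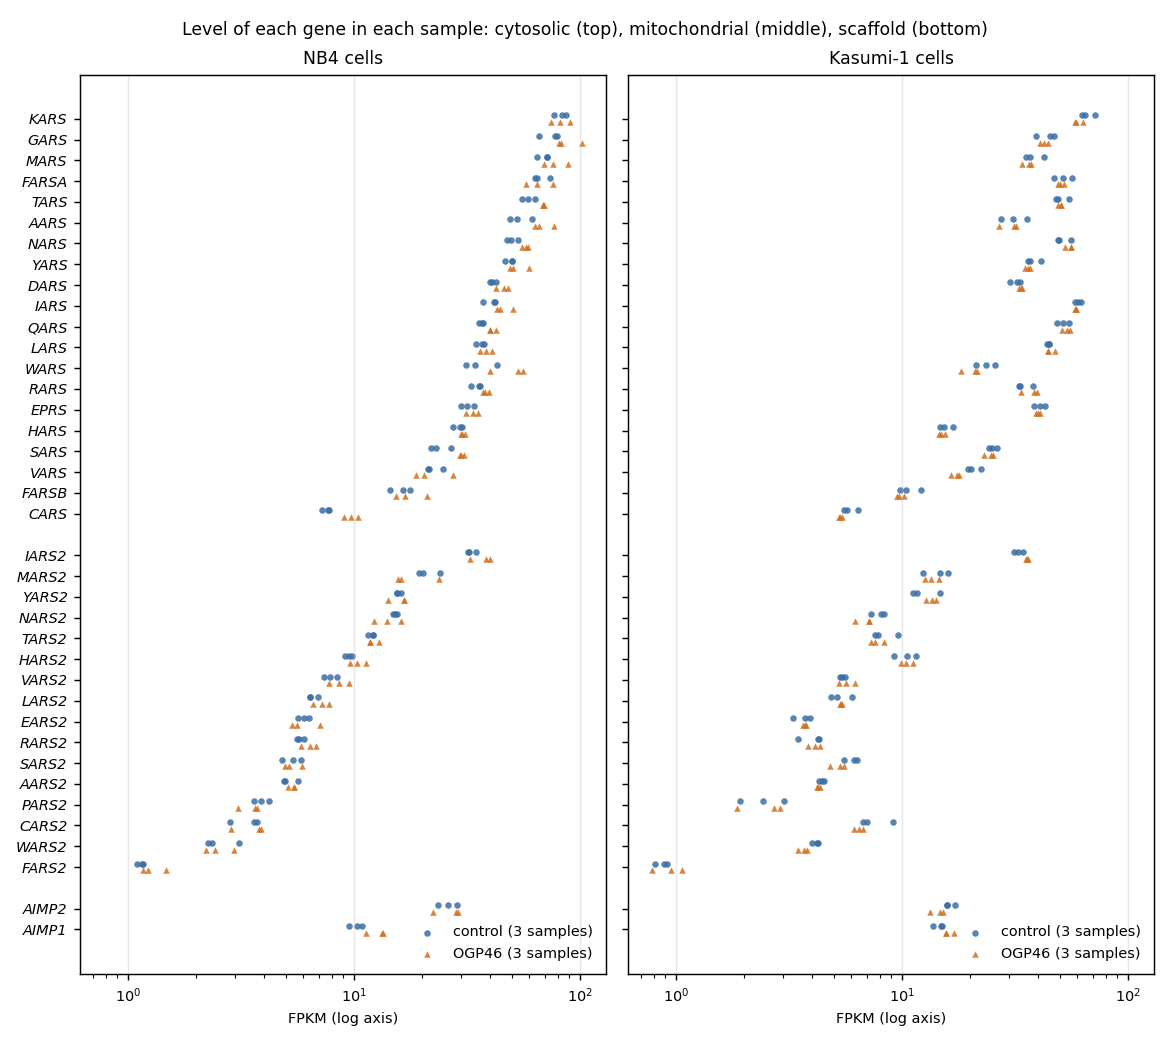
FPKM on a log axis (x) for each of the 38 genes (y) in NB4 cells (left) and Kasumi-1 cells (right), with 1 circle for each control sample and 1 triangle for each OGP46 sample. Cytosolic genes (top) centre near 38.6 FPKM in NB4 controls and mitochondrial genes (middle) near 6.31 FPKM, and circles and triangles lie close together for most genes.

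The start regions of the genes were searched for the letters that ATF4 and its partner C/EBP are known to bind, since ATF4 is known to act on many synthetase genes. RefSeq start windows (GRCh38.p14, 250 bases before to 50 bases after a start) were matched for 32 of the 38 genes. DARS, LARS, VARS, YARS, AARS2 and VARS2 had no matched window. The C/EBP-ATF element, searched as TGATGCAA on either strand, was found in 6 of 16 cytosolic genes, in 0 of 14 mitochondrial genes and in 0 of 2 scaffold genes. Among all protein-coding genes with a window, 143 of 15843 (0.903%) held it. The sequences below are the 30 bases around each match, read on the strand of the gene, with the element in capitals, as read from RefSeq.
AARS, chr16:70289675-70289704, minus strand: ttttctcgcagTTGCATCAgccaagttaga
CARS, chr11:3057407-3057436, minus strand: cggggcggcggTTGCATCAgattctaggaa
IARS, chr9:92293692-92293721, minus strand: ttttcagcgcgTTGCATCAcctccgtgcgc
MARS, chr12:57488053-57488082, plus strand: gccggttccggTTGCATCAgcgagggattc
TARS, chr5:33440956-33440985, plus strand: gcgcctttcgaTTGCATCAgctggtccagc
NARS, chr18:57621804-57621833, minus strand: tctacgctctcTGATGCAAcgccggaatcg

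In 5 of the 6 genes the element reads in the reverse direction (TTGCATCA), and in NARS it reads forward. Its first base lies 13 bases before the start in IARS, 4 before in MARS and 2 before in CARS, and it is base 3 after the start in TARS and base 15 in NARS. In AARS it lies 187 bases before the start, over an annotated exon of the neighbouring gene DDX19B. With any base in the sixth place (TGATGNAA), which includes every match above, GARS was added to the cytosolic genes and YARS2 was the only mitochondrial gene, against 3.60% of protein-coding genes. The GARS match differs in that letter.
GARS, chr7:30594834-30594863, plus strand: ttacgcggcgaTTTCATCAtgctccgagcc

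WARS had no match for the C/EBP-ATF element in its windows. It had a match for the core of the interferon-stimulated response element (GAAA, any 2 bases and GAAA again, on either strand), beginning 55 bases before a start. The share of protein-coding genes with such a match was 4.16%, and EARS2 was the other member with one. The WARS match is shown with these letters in capitals.
WARS, chr14:100375383-100375412, minus strand: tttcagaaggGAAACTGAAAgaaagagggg

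These matches describe the letters near the starts only. No binding was measured.

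In NB4 cells, OGP46 up- or down-regulated 0 of the 38 genes at an adjusted p below 0.05 by limma and a log2 change of at least 0.58 (1.49-fold). Of all 11750 genes tested, 1.45% were up-regulated and 0.111% down-regulated by the same rule. At an unadjusted p below 0.05 by limma, 7 of 38 members were higher and 0 lower, against 27.5% and 1.61% of all genes. With a block for the replicate number (a comparison within same-numbered pairs), 0 members passed as well, while 5.06% of all genes were up-regulated and 1.15% down-regulated. Median centring moved the split of the blocked calls over all genes from 595 higher and 135 lower to 188 higher and 203 lower. The 95% intervals of 2 members (WARS and AARS) reached the minimum change upwards and that of 1 member (MARS2) reached it downwards, so a change of that size lay within the intervals of these 3 genes.

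Most members were nevertheless a little higher with OGP46, as most genes of the table were. The log2 change was above 0 for 30 of 38 members (78.9%) and for 81.9% of all genes tested. The median log2 change was 0.15 for the cytosolic genes, 0.03 for the mitochondrial genes and 0.18 for all genes tested. The FPKM of all genes summed to 248207 to 256268 in NB4 controls and to 263341 to 291523 with OGP46, without overlap. After TPM scaling, which sets these sums equal, the median log2 change of all genes was 0.06. FPKM are divided by library size and do not show the amount of RNA per cell. As mRNA was measured in bulk, a shift in the mix of cell states and a change within the cells cannot be told apart. Measured against the median of all genes as deposited, 8 of 20 cytosolic members stood above it and 0 of 16 mitochondrial members did. The cytosolic median was 0.02 after scaling to TPM, 0.01 after quantile normalization and −0.07 after median centring, so that its sign depended on the scaling, and 17, 11 and 6 of the 20 genes were above 0 as deposited, after quantile normalization and after median centring.

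The summed level of the cytosolic genes was 815 to 896 FPKM in NB4 controls and 935 to 1034 FPKM with OGP46, and these groups did not overlap. As a share of all FPKM, however, the cytosolic genes took 0.341% ± 0.011 (SD, n = 3) in the controls and 0.350% ± 0.027 (SD, n = 3) with OGP46, and the groups overlapped. The mitochondrial genes took 0.0611% ± 0.0016 (SD, n = 3) and 0.0571% ± 0.0035 (SD, n = 3).

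The largest change in NB4 cells was that of WARS. This gene shares exon positions with WDR25 and AL157871.4 on the opposite strand. The WARS level was 43.1, 34.4 and 31.3 FPKM in controls 1 to 3 and 56.0, 53.6 and 40.0 FPKM with OGP46. The groups overlapped, since control 1 lay above OGP46 sample 3, but each OGP46 sample lay above the control of the same number. The log2 change was 0.46 (SE, the standard error, 0.16, adjusted p by limma 0.111, or 0.0043 when blocked by number), a 1.37-fold level. With median centring as well as the block, the log2 change was 0.24 and the adjusted p by limma was 0.0858.

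CARS, AARS and SARS, the cysteinyl, alanyl and seryl enzymes, had the next largest changes, and in each of them all 3 OGP46 samples lay above all 3 controls. CARS was at 7.76, 7.25 and 7.73 FPKM in the controls and at 10.5, 9.77 and 9.09 FPKM with OGP46, a log2 change of 0.36 (SE 0.09, adjusted p = 0.0688 by limma). AARS was at 61.3, 49.4 and 52.7 FPKM in the controls and at 76.9, 65.9 and 63.6 FPKM with OGP46, a log2 change of 0.34 (SE 0.11, adjusted p = 0.0991 by limma). SARS was at 27.0, 23.3 and 22.0 FPKM in the controls and at 31.0, 29.8 and 29.5 FPKM with OGP46. Its log2 change was 0.33 (SE 0.09, adjusted p = 0.0816 by limma). These changes were 1.29-fold, 1.26-fold and 1.25-fold, below the minimum of 1.49-fold for a call.

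AIMP1, the scaffold protein, was at 10.4, 10.9 and 9.53 FPKM in the controls and at 11.3, 13.4 and 13.4 FPKM with OGP46, a log2 change of 0.31 (SE 0.10, adjusted p = 0.105 by limma), again without overlap. GARS, the glycyl enzyme, was at 78.0, 79.4 and 66.1 FPKM and at 83.1, 103 and 81.0 FPKM, a log2 change of 0.25 (SE 0.11, adjusted p = 0.184 by limma). The OGP46 samples of GARS lay above the controls too, by 1.19-fold on average. Without a minimum change, the block gave an adjusted p below 0.05 by limma for WARS, AARS, CARS, SARS, AIMP1 and GARS, 6 of 38 members, all higher, where 21% of all genes were higher and 1.88% lower by this rule. These 6 genes stayed above 0 after TPM scaling, quantile normalization and median centring. With both the block and median centring, however, 0 of them had an adjusted p below 0.05 by limma. The values ran from 0.0858 (WARS) to 0.732 (GARS).

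In all, 12 of 38 members were higher with OGP46 without overlap between the groups and 0 were lower, against 32.7% and 1.91% of all genes tested. The 12 were AIMP1, FARS2 and the cytosolic AARS, CARS, DARS, GARS, IARS, NARS, QARS, RARS, SARS and TARS. TARS, the threonyl enzyme, was at 63.4, 59.3 and 55.7 FPKM in the controls and at 69.2, 69.9 and 69.2 FPKM with OGP46, a log2 change of 0.22 (SE 0.07, adjusted p = 0.104 by limma). In same-numbered pairs, 18 of 38 members were higher in all 3 pairs, against 52.9% of all genes.

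The members with the C/EBP-ATF element can be set beside those without it. The 6 genes with the element had log2 changes of 0.17 to 0.36 in NB4 cells, with a median of 0.21, and each was higher in all 3 pairs, 5 of them without overlap. The 10 cytosolic genes with a window and no match had log2 changes of −0.03 to 0.46, with a median of 0.13. Of these 10, 5 were higher in all 3 pairs and 4 were higher without overlap. Of all genes tested, 52.9% were higher in all 3 pairs and 32.7% were higher without overlap. Relative to the median of all genes, the median of the 6 was 0.03 higher and that of the 10 was 0.05 lower, and after median centring 3 of the 6 and 3 of the 10 were above 0. The difference between both sets was not tested, since the genes share samples. MARS, the methionyl enzyme, shares exon positions with DDIT3 and ARHGAP9 on the opposite strand. DDIT3 rose with OGP46 when the block was used (log2 change 0.74, blocked adjusted p by limma 0.00126, unblocked 0.21), and whether the authors' counting used strand is not stated, so reads of MARS and DDIT3 cannot be told apart here.

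**Figure D2:**
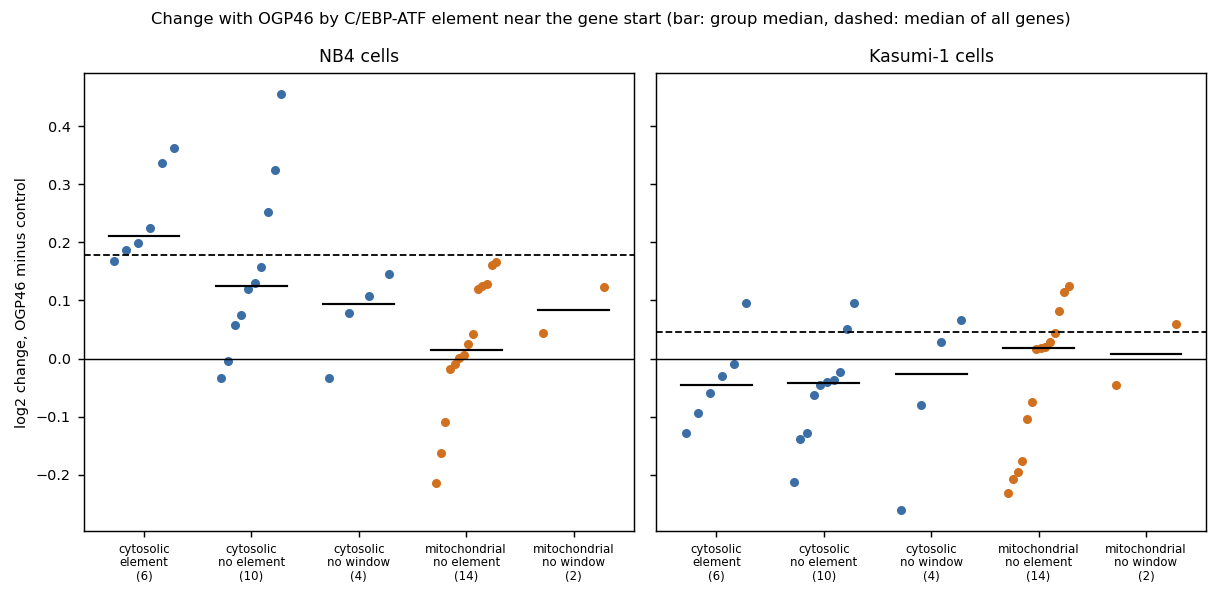
Log2 change with OGP46 (y, OGP46 minus control) in NB4 cells (left) and Kasumi-1 cells (right), for cytosolic genes (blue) and mitochondrial genes (orange) grouped by whether the start window held TGATGCAA, with the number of genes below each group, a bar at each group's median and a dashed line at the median of all genes tested. In NB4 cells the 6 genes with the element (AARS, CARS, IARS, MARS, NARS and TARS) lie between 0.17 and 0.36, and in Kasumi-1 cells 5 of these 6 lie below 0.

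Among the mitochondrial genes, none stood above the median of all genes in NB4 cells. MARS2, the mitochondrial methionyl enzyme, was at 20.4, 24.1 and 19.4 FPKM in the controls and at 15.7, 23.8 and 16.3 FPKM with OGP46. The groups overlapped, and each OGP46 sample lay below the control of the same number. The log2 change was −0.21 (SE 0.16, adjusted p = 0.391 by limma). PARS2, the mitochondrial prolyl enzyme, was the only other member that was lower in all 3 pairs, a pattern of 6.32% of all genes, and had a log2 change of −0.16 (SE 0.12, adjusted p = 0.374 by limma). With the block, median centring and no minimum change, the mitochondrial MARS2, NARS2, PARS2 and YARS2 and the cytosolic FARSA and KARS were lower at an adjusted p below 0.05 by limma, where 9.26% of all genes were lower and 5.12% higher.

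**Figure D3:**
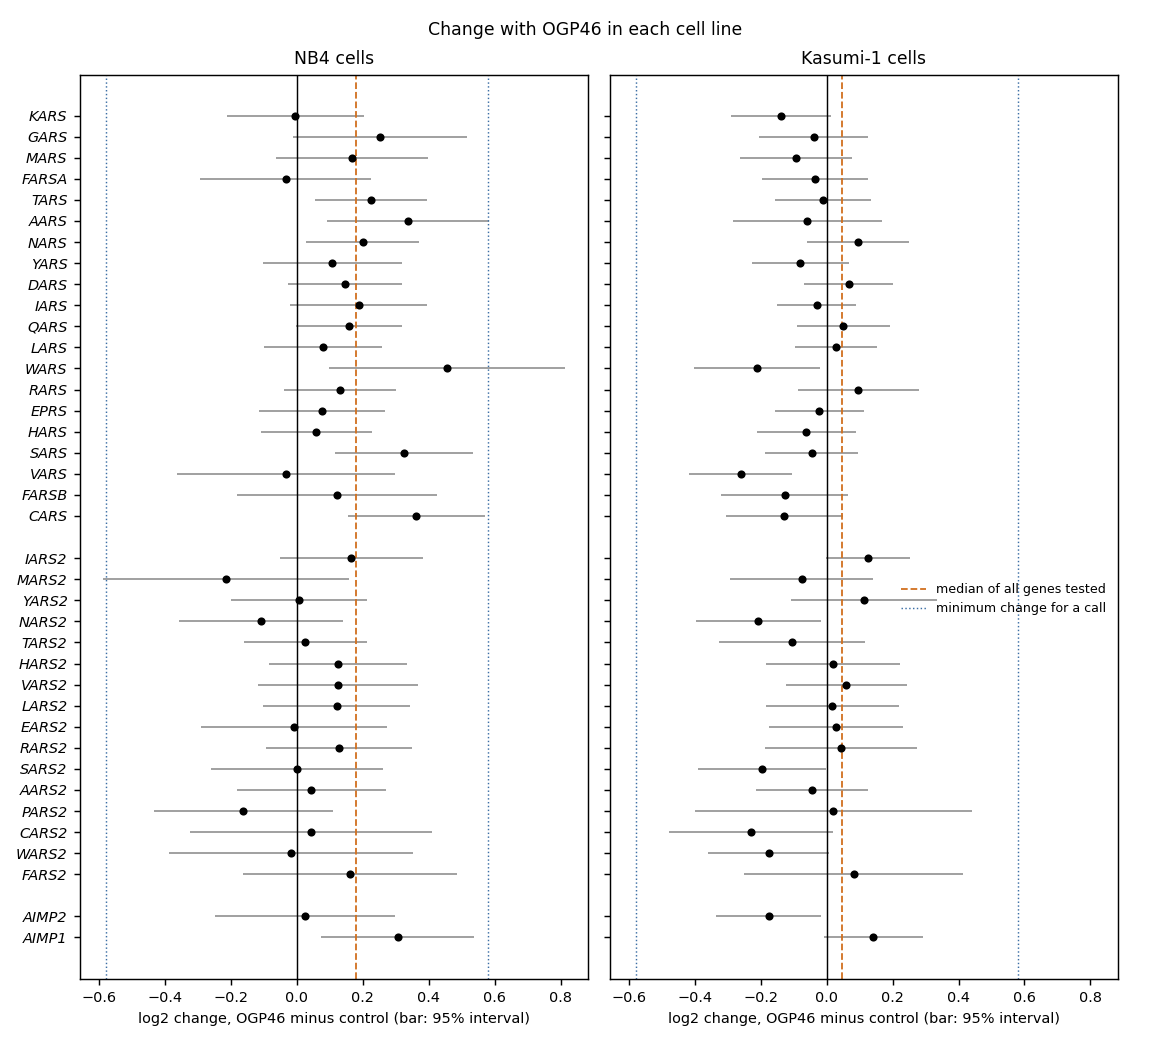
Log2 change with OGP46 (x, OGP46 minus control) for each gene (y) in NB4 cells (left) and Kasumi-1 cells (right). Points are limma estimates from 3 samples a group, bars are 95% intervals, the dashed line is the median of all genes tested (0.18 in NB4 and 0.05 in Kasumi-1) and dotted lines mark the minimum change of 0.58. WARS lies farthest right in NB4 cells at 0.46, and no estimate reaches a dotted line.

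A ratio of the cytosolic to the mitochondrial enzyme for the same amino acid does not depend on the scaling of a sample. For 14 amino acids both genes were measured. In NB4 cells the ratio was higher with OGP46 without overlap for 5 of them and lower for 0. These were alanine, methionine, asparagine, serine and threonine. The mean ratio of AARS to AARS2 was 10.5 in the controls and 12.9 with OGP46, and that of MARS to MARS2 was 3.28 and 4.30. In Kasumi-1 cells the ratio was higher for asparagine and lower for isoleucine, valine and tyrosine, and overlapped for the other 10. The cysteinyl pair stood apart from the rest, since CARS2 exceeded CARS in Kasumi-1 controls (mean ratio of CARS to CARS2 0.776) but not in NB4 controls (mean ratio 2.26). No test was run on these ratios, and no share over other gene pairs was computed to set beside the counts.

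In Kasumi-1 cells, OGP46 likewise up- or down-regulated 0 of the 38 genes by limma, with and without the block, where 0.0169% of all genes were up-regulated and 0.0169% down-regulated without the block and 0.27% and 0.346% with it. Median centring moved the split over all genes without the block from 2 higher and 2 lower to 4 higher and 14 lower. At an unadjusted p below 0.05 by limma, 0 of 38 members were higher and 5 lower, against 12% and 3.65% of all genes. No 95% interval of a member reached the minimum change in either direction. The highest upper bound was 0.44 (PARS2) and the lowest lower bound was −0.48 (CARS2). The log2 change was above 0 for 15 of 38 members (39.5%), against 62% of all genes tested. The median log2 change was −0.04 for the cytosolic genes, 0.02 for the mitochondrial genes and 0.05 for all genes.

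VARS, CARS2 and WARS had the lowest log2 changes in Kasumi-1 cells. VARS, the valyl enzyme, was at 20.4, 22.6 and 19.6 FPKM in the controls and at 16.6, 17.6 and 18.0 FPKM with OGP46, all 3 below the controls. Its log2 change was −0.26 (SE 0.07, adjusted p = 0.140 by limma). CARS2, the mitochondrial cysteinyl enzyme, was at 7.03, 9.16 and 6.78 FPKM in the controls and at 6.13, 6.75 and 6.48 FPKM with OGP46, without overlap. Its log2 change was −0.23 (SE 0.11, adjusted p = 0.347 by limma).

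WARS was at 23.5, 25.8 and 21.4 FPKM in the Kasumi-1 controls and at 21.5, 21.1 and 18.4 FPKM with OGP46. The groups overlapped by a narrow margin, and each OGP46 sample lay below its same-numbered control. The log2 change was −0.21 (SE 0.09, adjusted p = 0.274 by limma). NARS2, the mitochondrial asparaginyl enzyme, was at 8.34, 8.12 and 7.35 FPKM in the controls and at 7.20, 7.15 and 6.24 FPKM with OGP46, a log2 change of −0.21 (SE 0.08, adjusted p = 0.279 by limma), without overlap.

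Upwards, IARS2, the mitochondrial isoleucyl enzyme, was at 31.5, 34.5 and 32.7 FPKM in the controls and at 36.1, 35.5 and 36.1 FPKM with OGP46, a log2 change of 0.13 (SE 0.06, adjusted p = 0.326 by limma). AIMP1 was at 13.8, 15.0 and 15.1 FPKM in the controls and at 15.7, 15.7 and 17.1 FPKM with OGP46, a log2 change of 0.14 (SE 0.07, adjusted p = 0.339 by limma). Both were without overlap. These were the only 2 of 38 members higher without overlap, against 17.4% of all genes, while 7 of 38 were lower without overlap, against 5.23%. The 7 were CARS, VARS, CARS2, NARS2, SARS2, WARS2 and AIMP2. In same-numbered pairs, 15 of 38 were lower in all 3, against 13.8% of all genes, and 3 of 38 were higher in all 3, against 31.7%.

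Of the 6 genes with the C/EBP-ATF element, 5 had a log2 change below 0 in Kasumi-1 cells and NARS was above 0, with a median of −0.04. The 10 cytosolic genes with a window and no match had a median of −0.04 as well. With the block, median centring and no minimum change, 9 of 38 members were lower in Kasumi-1 cells at an adjusted p below 0.05 by limma, namely FARSB, KARS, MARS, VARS, WARS, CARS2, NARS2, SARS2 and AIMP2. Of all genes, 7.06% were lower and 2.86% higher by this rule.

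**Figure D4:**
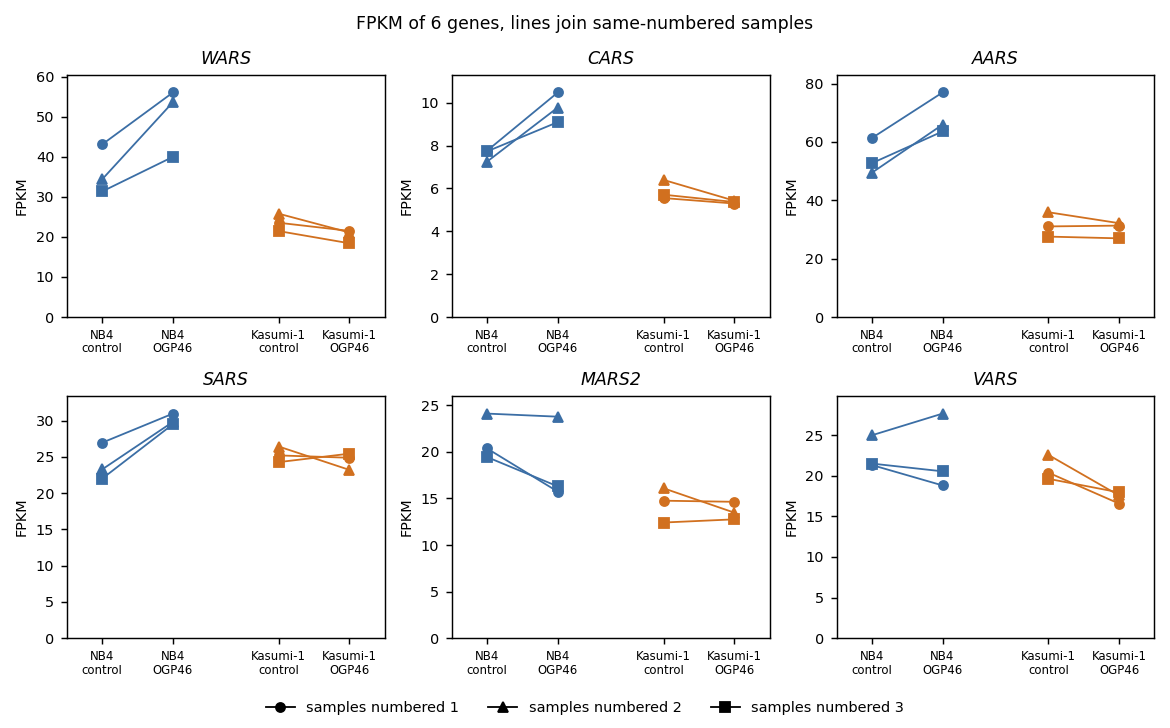
FPKM (y, from 0) of WARS, CARS, AARS, SARS, MARS2 and VARS in each control and OGP46 sample of NB4 (blue) and Kasumi-1 (orange), with a line between the same-numbered samples. WARS is higher at the OGP46 end of all 3 NB4 lines and lower at that of all 3 Kasumi-1 lines, where the OGP46 samples lie at 18.4 to 21.5 FPKM.

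The difference between the OGP46 changes of both lines was tested as an interaction over the 12 samples. Without the block, 0 members and 0 of all 12309 genes (0%) passed in limma, and at an unadjusted p below 0.05 there were 6 of 38 members above 0 and 0 below, against 9.95% and 0.999% of all genes. The change was higher in NB4 than in Kasumi-1 for all 20 cytosolic genes (11 of 20 after median centring), for 12 of 16 mitochondrial genes, and for 75.7% of all genes tested. Relative to the median difference of all genes (0.12), 12 of 20 cytosolic and 4 of 16 mitochondrial genes stood higher. With the block for each line and number, WARS was the only member that passed, with a difference of 0.67 on the log2 scale and an adjusted p of 0.0178 by limma (0.253 without the block), where 1.4% of all genes passed upwards and 0.106% downwards. With median centring and the block its difference was 0.52 at an adjusted p of 0.0467 by limma, below the minimum change. The call was lost, at adjusted p values of 0.0588, 0.0906 and 0.0653 by limma, when the samples numbered 2 of NB4, 2 of Kasumi-1 or 3 of Kasumi-1 were left out. CARS had the next largest difference, 0.49 (SE 0.11, adjusted p = 0.151 by limma, 0.0568 with the block).

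Between the untreated lines, 10 members were higher in NB4 controls than in Kasumi-1 controls and 2 were lower by limma, against 22.7% and 29.7% of the 12302 genes tested. The split depended on the scaling. It was 2790 higher and 3659 lower for all genes as deposited, and 3585 higher and 3004 lower after TPM scaling, where 15 members were higher and 1 lower. The 10 were the cytosolic AARS, FARSB, GARS, HARS, MARS and WARS, the mitochondrial EARS2, NARS2 and PARS2, and AIMP2. The 2 lower genes were CARS2 and WARS2. Apart from the cell line itself, culture and library preparation may have differed between the lines, and these cannot be told apart. The median log2 difference of all genes was −0.10, and those of the cytosolic and mitochondrial members were 0.34 and 0.34.

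The largest differences upwards were those of NARS2, HARS and MARS. NARS2 was at 14.9, 15.6 and 15.2 FPKM in NB4 controls and at 8.34, 8.12 and 7.35 FPKM in Kasumi-1 controls, 1.91-fold (log2 difference 0.94, SE 0.08, adjusted p = 6.5e-06 by limma). NARS2 shares exon positions with AP003086.2 on the opposite strand. HARS, the histidyl enzyme, was at 30.2, 27.6 and 29.7 FPKM against 14.8, 16.8 and 15.5 FPKM, 1.85-fold (log2 difference 0.89, SE 0.08, adjusted p = 7.5e-06 by limma). HARS shares exon positions with HARS2 on the opposite strand, and HARS2 was at 9.88, 9.16 and 9.59 FPKM against 10.5, 11.6 and 9.26 FPKM, with overlap. MARS was at 71.8, 71.8 and 65.0 FPKM against 35.6, 42.6 and 37.2 FPKM, 1.81-fold (log2 difference 0.86, SE 0.08, adjusted p = 1.9e-05 by limma).

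AARS and GARS stood 1.73-fold and 1.69-fold higher in NB4, with no overlap in either gene. AARS was at 31.0, 35.9 and 27.6 FPKM in Kasumi-1 controls (log2 difference 0.79, SE 0.11, adjusted p = 0.000203 by limma). GARS was at 39.5, 47.0 and 45.5 FPKM there (log2 difference 0.76, SE 0.10, adjusted p = 9.5e-05 by limma). EARS2, the mitochondrial glutamyl enzyme, was at 6.34, 6.02 and 5.69 FPKM in NB4 controls against 3.72, 3.94 and 3.31 FPKM in Kasumi-1 controls (log2 difference 0.70, SE 0.10, adjusted p = 0.000205 by limma). AIMP2, PARS2, WARS and FARSB had log2 differences of 0.67, 0.67, 0.61 and 0.59, with adjusted p values of 9.3e-05, 0.00415, 0.00154 and 0.000876 by limma. On the opposite strand, GARS shares exon positions with GARS-DT, EARS2 with UBFD1 and AIMP2 with EIF2AK1. The calls of FARSB, WARS and PARS2 lay close to the minimum change and were lost when a single control was left out. FARSB was at 0.576, 0.529, 0.527 and 0.571 without NB4 control 1 or 2 or Kasumi-1 control 1 or 3. WARS was at 0.48 without NB4 control 1 and 0.54 without Kasumi-1 control 3, and PARS2 was at 0.51 without Kasumi-1 control 3.

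Downwards, CARS2 was at 3.75, 3.63 and 2.83 FPKM in NB4 controls and at 7.03, 9.16 and 6.78 FPKM in Kasumi-1 controls (log2 difference −1.14, SE 0.15, adjusted p = 0.000111 by limma). On the opposite strand, CARS2 shares exon positions with ING1 and WARS2 with AL359915.2. WARS2, the mitochondrial tryptophanyl enzyme, was at 2.26, 3.11 and 2.37 FPKM against 4, 4.27 and 4.21 FPKM (log2 difference −0.68, SE 0.13, adjusted p = 0.00137 by limma). Its difference was −0.48 after TPM scaling, −0.54 after median centring and −0.47 after quantile normalization, short of the minimum change. The cytosolic partners stood the other way, with CARS 1.28-fold and WARS 1.53-fold higher in NB4.

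The genes of the multi-synthetase complex did not all stand on the same side between the lines. IARS, QARS, EPRS and LARS, the isoleucyl, glutaminyl, glutamyl-prolyl and leucyl enzymes, were lower in NB4 controls without overlap, with log2 differences of −0.57, −0.50, −0.35 and −0.29 and adjusted p values of 8.2e-05, 0.000158, 0.00256 and 0.00257 by limma. The scaffold AIMP1 was lower as well, at 10.4, 10.9 and 9.53 FPKM against 13.8, 15.0 and 15.1 FPKM (log2 difference −0.51, SE 0.08, adjusted p = 0.000406 by limma). None of these 5 genes reached the minimum change as deposited. IARS lay close to it, and passed at −0.60 after quantile normalization and when NB4 control 1 or 2 or Kasumi-1 control 3 was left out. All 5 stayed below 0 after TPM scaling, median centring and quantile normalization. MARS, KARS, DARS and AIMP2 of the same complex were higher in NB4 without overlap, and RARS was at 36.0, 36.3 and 33.1 FPKM against 33.1, 38.2 and 33.5 FPKM. Of the 12 cytosolic genes outside the complex, 9 were higher in NB4 without overlap and 0 lower. Over all members, 24 of 38 were higher without overlap and 7 lower, against 34.6% and 43.1% of all genes tested. Without a minimum change, 23 were higher and 7 lower at an adjusted p below 0.05 by limma, against 33.1% and 41.4%. The division by complex was made after these values were seen, and the sets were not tested against each other.

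**Figure D5:**
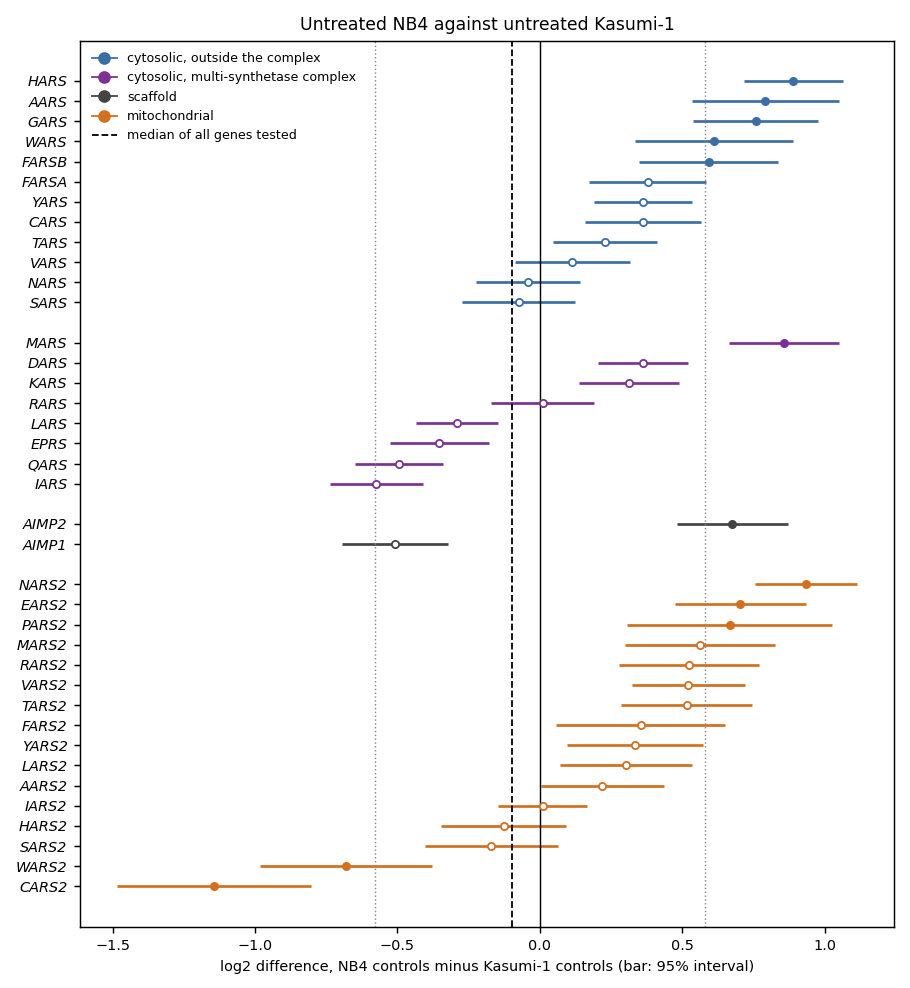
Log2 difference between NB4 and Kasumi-1 controls (x) for each gene (y), in 4 blocks by role, with 95% intervals by limma on 3 samples a group. Filled points passed the threshold, the dashed line is the median of all genes tested (−0.10) and dotted lines mark the minimum change of 0.58. IARS, QARS, EPRS and LARS of the complex lie to the left of 0, and 9 of the 12 cytosolic genes outside it lie to the right with no overlap of the groups.

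Other genes of tRNA charging did not pass the test with OGP46 in either line. The list of 16 partners holds EEF1E1, the third scaffold protein of the complex, and mainly genes that trim, export, edit or amidate tRNAs. Of the 16, 0 were up- or down-regulated in NB4 or Kasumi-1 cells, with and without the block, and the median log2 change in NB4 cells was 0.06. The largest in NB4 cells were PSTK and SEPSECS, which make selenocysteyl-tRNA, at log2 changes of 0.31 and 0.29 (adjusted p = 0.345 and 0.195 by limma). In Kasumi-1 cells they were MTFMT, which formylates the mitochondrial initiator tRNA, at 0.26 and SEPSECS at 0.24 (adjusted p = 0.33 and 0.276 by limma). Of 10 translation elongation factor genes, 0 passed in either line, and their median log2 changes were 0.05 in NB4 and −0.07 in Kasumi-1 cells.

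Genes of the ATF4 branch other than the synthetases passed the test in NB4 cells. Of the 26 genes on the list, 24 were tested in NB4 cells, and 4 of them were up-regulated, namely TRIB3, DDIT4, ASNS and CEBPB. None was down-regulated. Of all genes tested, 1.45% were up-regulated and 0.111% down-regulated by the same rule. With the block, 9 of the 24 were up-regulated, against 5.06% of all genes. With the block and median centring, 7 of the 24 were up-regulated, against 188 of all 11750 genes. Without the block, TPM scaling, median centring and quantile normalization left 0 genes of the whole table called in NB4 cells, so these 4 calls were lost. The median log2 change of the 24 was 0.41, against 0.18 for all genes tested and 0.15 for the cytosolic synthetases. ASNS, asparagine synthetase, was at 15.4, 13.1 and 11.9 FPKM in the NB4 controls and at 25.2, 29.5 and 19.9 FPKM with OGP46, a log2 change of 0.87 (SE 0.15, adjusted p = 0.0364 by limma). TRIB3, a pseudokinase that feeds back on ATF4, was at 17.2, 12.8 and 15.1 FPKM and at 29.1, 30.4 and 23.8 FPKM, a log2 change of 0.88 (SE 0.13, adjusted p = 0.0299 by limma). Both genes were without overlap. DDIT4, an inhibitor of mTORC1, and CEBPB, a partner of ATF4, had log2 changes of 1.24 and 0.82 (adjusted p = 0.0351 and 0.0289 by limma). ATF4 mRNA itself was at 47.4, 43.7 and 44.6 FPKM in the NB4 controls and at 50.3, 52.5 and 51.7 FPKM with OGP46. In Kasumi-1 cells 0 of the 24 tested passed with or without the block, and the median log2 change was 0.03. This list was drawn up with earlier results of the same samples known and is no independent evidence of a direction.

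The genes that respond to interferon gamma were listed because WARS is among the targets of this cytokine. Of 14 genes, 9 were tested in NB4 and 6 in Kasumi-1 cells, and 0 passed in either line without the block, with median log2 changes of 0.06 and −0.01. With the block, CXCL10, a chemokine, was down-regulated in NB4 cells (log2 change −0.88, blocked adjusted p by limma 0.00526). By this rule 1.15% of all genes were down-regulated. Its level was 3.53, 0.143 and 4.41 FPKM in the controls and 1.32, 0.0418 and 3.10 FPKM with OGP46, so that the groups overlapped widely. Between the untreated lines, 9 of the 10 tested genes were higher in NB4 and 1 was lower by limma, against 22.7% and 29.7% of all genes.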

How the data were processed

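The authors deposited 1 FPKM value per gene symbol and sample for 12 samples of poly(A) mRNA, prepared with a stranded kit. The submitters' processing notes name Trimmomatic, HISAT2, Cufflinks, HTSeq and the build hg38, without versions or roles, and use of strand in counting is not given in the sources used here. Of the values, 632 lie above 0 and below 1e-04, so reads were shared out by an estimate, which leaves overlapping genes uncertain. After 27 symbols turned into dates were left out, 20003 genes remained. limma version 3.58.1 (R version 4.3.3, empirical Bayes with trend) was fitted to log2(FPKM + 0.1) over all genes whose mean reached 0.1 FPKM, with Benjamini-Hochberg adjustment over all of them. Calls needed an adjusted p below 0.05 and a log2 change of at least 0.58, the study's thresholds. A single-gene exact test of 3 against 3 samples cannot go below p = 0.1.

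Groups come from the labels. Deviations from the group means correlated between control and OGP46 samples of the same number over all genes tested (r = 0.35, 0.62 and 0.20 in NB4 and 0.22, 0.16 and 0.40 in Kasumi-1 cells), so the numbers were taken to pair the samples within a line, and the block gives the paired fit. Members, lists and alternatives were chosen with earlier results of these data known. Members described sample by sample are those called in any comparison, with or without the block, and the 3 largest changes in each direction without overlap. WARS in single lines, FARSA, FARSB, AIMP1, GARS, TARS, MARS2, PARS2, HARS2, RARS and ATF4 were added after their values were seen. Gene positions and exon overlaps are from GENCODE release 29, and start windows from RefSeq. Exons of 19 members overlap a gene on the opposite strand, and exons of 3 members overlap a protein-coding gene on the same strand. The fits were tested on simulated data.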

Additional observations from a re-analysis of the deposited data

Results flagged for a closer look

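WARS was singled out because its OGP46 change differed between the lines by 0.67 on the log2 scale in the interaction test with the replicate block (adjusted p = 0.0178 from limma). It was higher in 3 of 3 NB4 pairs and lower in 3 of 3 Kasumi-1 pairs. Without the block the adjusted p from limma was 0.253. CARS was singled out because all 3 OGP46 samples lay above the controls in NB4 cells and all 3 lay below them in Kasumi-1 cells. Its difference of 0.49 did not pass the interaction test, with an adjusted p of 0.151 from limma.

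Among the other genes of the pathway, the interaction with the block also passed for SESN2 (0.95), DDIT4 (0.89), ASNS (0.77), SLC7A5 (0.64), VLDLR (0.93) and TAP1 (0.79), all with a higher change in NB4 cells. The adjusted p values from limma were 0.05 (just below the threshold), 0.0283, 0.0219, 0.0209, 0.0353 and 0.0241. Of all genes, 1.4% passed upwards by this rule. None of these genes passed without the block, or with both the block and median centring. TAP1 was low in Kasumi-1 cells, at 0.492, 0.432 and 0.711 FPKM in the controls and 0.246, 0.232 and 0.385 FPKM with OGP46.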

How the results depend on the processing

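The count of 0 members called for OGP46 held in both lines under each alternative that kept the minimum change, including every sample left out in turn and the block without both samples of 1 number. With the block and no minimum change, 6 members were higher in NB4 cells, and with the block, median centring and no minimum change 6 were lower in NB4 and 9 lower in Kasumi-1 cells. Both were added once the data had been seen. In the interaction, 1 member was higher with the block, as in 3 of the 6 block fits without a pair of same-numbered samples (0 to 1). Between the untreated lines, 23 members were higher and 7 lower with no minimum change, and 1 was lower with a pseudocount of 1, TPM scaling, median centring or the block with median centring, since WARS2 then fell short. The number higher was 8, 15, 14 and 14 under these 4 settings, and 13 were higher and 2 lower (CARS2 and IARS) after quantile normalization. With 1 control left out, 7 to 12 were higher and 2 to 3 lower. Over all genes in NB4 cells, 170 higher and 13 lower calls became 0 and 0 after TPM scaling, median centring or quantile normalization, 111 and 6 with a pseudocount of 1, 6 and 0 with no filter, 3 and 1 with no mean-variance trend and 595 and 135 with the block. They became at most 1 and 1 when any NB4 sample but OGP46 sample 2 was left out, and 368 and 28 without that sample. Over all genes in Kasumi-1 cells, 2 and 2 calls became 32 and 41 with the block. Numbers did not pair the samples between lines (r of −0.05 to 0.02), and the block left 10 higher and 2 lower between the lines. No member called with the minimum change changed sign, while the median log2 change of the cytosolic genes in NB4 cells went from 0.15 to −0.07 after median centring, and 30, 16, 13 and 7 of the 38 members were above 0 there as deposited and after TPM scaling, quantile normalization and median centring. FARS2 had no value in Kasumi-1 cells at a minimum mean of 1 FPKM. The depth behind FPKM is unknown, and the members' standard errors of 0.05 to 0.19 on the log2 scale within a line limit what could be seen.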
